A study of Mus musculus with 54 samples.

Results

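Esrrb, Nr5a2 and Tfcp2l1 encode transcription factors of the network that keeps mouse embryonic stem (ES) cells undifferentiated, and the accessible chromatin around them is described here. Accessible regions were read from a list of 113737 peaks of ATAC-seq, an assay in which a transposase cuts open DNA. A peak was assigned to a gene if its centre lay inside the gene body or at most 50 kb from a transcription start site (TSS) that the annotation gives for it. This gave 54 of the 113737 peaks, of which 29 belonged to Esrrb, 19 to Nr5a2 and 6 to Tfcp2l1, and no peak belonged to more than 1 of the genes. All positions are on the mouse build GRCm38, counted from 1, with genes and TSSs from GENCODE M21.

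The cells were ZHBTc4 ES cells, in which a Tet-Off promoter controls Pou5f1, the gene of the transcription factor OCT4, so that doxycycline (dox) shuts off the untagged OCT4. They carried mCherry-OCT4-AID, an OCT4 that the plant hormone auxin (IAA, 500 nM) sends to degradation through the Tir1 ubiquitin ligase, which they also expressed. The tagged OCT4 was expressed at low levels from the PGK promoter. The cells also carried YPet-MD, a reporter of the cell cycle phase. They were grown in serum with LIF and inhibitors of GSK3 and MEK, and the line was a sorted population made by lentiviral transduction, not a single clone. In all 54 libraries the cells had received dox, so that the tagged protein was the source of OCT4. In the cell cycle set of 22 libraries, cells with 26 h of dox were sorted into Early G1, Late G1, S and Late S/G2 with no IAA or with 2 h of IAA (3 libraries per group, 2 in Late S/G2). In the washout set of 16 libraries, cells with 31 h of dox received no IAA or 2.5 h of IAA, followed by washout for 4.5 h, and were sorted into the same phases (2 libraries per group). In the time course of 16 libraries, unsorted cells with 34 h of dox were left untreated or received IAA for 30 min or for 1, 2, 3, 4, 6 or 10 h (2 libraries per group). The peak list joins peaks from these treatments and holds positions only, with no height, score or value for a library. Accessibility with and without OCT4, between phases or between times could therefore not be compared here, depth was unknown, the list has no value per replicate, and every value below describes the joined list. A peak says that a region was called in at least some of the cells and treatments, not in which.

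ESRRB is an orphan nuclear receptor that binds DNA as a monomer at an extended core site, and in ES cells it is a target of the WNT and GSK3 branch of the network, held down by TCF7L1. NR5A2 (LRH-1) is a nuclear receptor that binds a closely similar site and is known for maintaining Pou5f1 expression in pluripotent cells. TFCP2L1 belongs to the grainyhead and CP2 family, binds a tandem of short repeats and acts downstream of LIF and STAT3. The 3 proteins take part in the same circuit and can bind near each other's genes.

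The sequences that the results turn on come from the RefSeq GRCm38.p6 genome and are given first. Matches to the patterns of the factors themselves are shown with 30 bases on each side and the match in capitals. ESRRB was searched as TCAAGGTCA and NR5A2 as TCAAGGCCA, which differ by T7C, counted from the first base of the ESRRB pattern. TFCP2L1 was searched as CCAG or CCGG, 6 free bases, and CCAG or CCGG again. All 4 Esrrb peaks with the ESRRB pattern are shown, because they hold every ESRRB match among the 54 peaks; peaks are numbered within a gene in the direction of transcription.
Esrrb peak 2, ESRRB then NR5A2 on the opposite strand (chr12:86365560-86365669, + strand): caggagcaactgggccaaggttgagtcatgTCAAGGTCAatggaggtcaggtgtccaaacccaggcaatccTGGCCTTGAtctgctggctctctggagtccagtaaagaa
Esrrb peak 2, TFCP2L1 (chr12:86365460-86365533, - strand): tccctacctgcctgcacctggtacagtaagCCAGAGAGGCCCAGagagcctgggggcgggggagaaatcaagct
Esrrb peak 3, ESRRB (chr12:86386053-86386121, - strand): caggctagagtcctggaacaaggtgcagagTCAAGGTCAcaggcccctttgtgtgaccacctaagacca
Esrrb peak 26, first ESRRB (chr12:86501687-86501755, - strand): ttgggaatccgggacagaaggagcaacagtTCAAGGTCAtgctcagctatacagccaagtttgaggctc
Esrrb peak 26, second ESRRB (chr12:86502029-86502097, + strand): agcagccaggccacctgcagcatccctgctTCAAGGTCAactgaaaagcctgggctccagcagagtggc
Esrrb peak 27, ESRRB then TFCP2L1 on the opposite strand (chr12:86504489-86504591, + strand): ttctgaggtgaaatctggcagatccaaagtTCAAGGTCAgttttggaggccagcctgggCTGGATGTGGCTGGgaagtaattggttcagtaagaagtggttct

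The single composite OCT4::SOX2 match among the members, the single STAT3 match (TTCCNGGAA), and the TFCP2L1 matches at Tfcp2l1 itself are shown for the same reason. OCT4::SOX2 was searched as the SOX element CATTGT, 1 free base and the octamer ATGCAAAT, with up to 2 mismatches.
Nr5a2 peak 11, OCT4::SOX2 (chr1:136940742-136940816, + strand): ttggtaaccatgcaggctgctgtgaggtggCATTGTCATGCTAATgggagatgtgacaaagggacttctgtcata
Esrrb peak 22, STAT3 (chr12:86482182-86482250, + strand): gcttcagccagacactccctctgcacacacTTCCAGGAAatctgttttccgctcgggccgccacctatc
Tfcp2l1 peak 1, TFCP2L1 (chr1:118628312-118628385, - strand): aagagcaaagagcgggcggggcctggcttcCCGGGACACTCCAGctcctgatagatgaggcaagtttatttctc
Tfcp2l1 peak 5, first TFCP2L1 (chr1:118648116-118648189, - strand): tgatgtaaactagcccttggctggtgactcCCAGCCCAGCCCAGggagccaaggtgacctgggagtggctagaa
Tfcp2l1 peak 5, second TFCP2L1 (chr1:118648334-118648407, + strand): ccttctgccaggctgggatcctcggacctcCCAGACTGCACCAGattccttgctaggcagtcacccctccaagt
Tfcp2l1 peak 6, TFCP2L1 (chr1:118650221-118650294, - strand): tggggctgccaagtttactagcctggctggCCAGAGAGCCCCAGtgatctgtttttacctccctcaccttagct

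The 250 bases before each RefSeq promoter's TSS are shown because Esrrb and Nr5a2 each had a promoter without a peak and a later one inside a peak. Capitals mark a KLF match and a TATA box (TATAAA, searched on the gene's strand after the sequences had been seen).
Esrrb first promoter, no peak (chr12:86360867-86361116, + strand): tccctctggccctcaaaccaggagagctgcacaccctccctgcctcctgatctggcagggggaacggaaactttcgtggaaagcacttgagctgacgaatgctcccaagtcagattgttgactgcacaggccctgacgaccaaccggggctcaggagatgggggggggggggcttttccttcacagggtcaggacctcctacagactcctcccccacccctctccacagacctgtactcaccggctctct
Esrrb later promoter, inside peak 8 (chr12:86421394-86421643, + strand): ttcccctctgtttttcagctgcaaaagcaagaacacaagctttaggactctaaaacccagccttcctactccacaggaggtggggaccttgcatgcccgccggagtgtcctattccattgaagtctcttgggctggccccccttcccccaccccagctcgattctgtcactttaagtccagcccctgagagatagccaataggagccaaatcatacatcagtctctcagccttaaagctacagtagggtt
Nr5a2 first promoter, no peak (chr1:136960449-136960698, - strand): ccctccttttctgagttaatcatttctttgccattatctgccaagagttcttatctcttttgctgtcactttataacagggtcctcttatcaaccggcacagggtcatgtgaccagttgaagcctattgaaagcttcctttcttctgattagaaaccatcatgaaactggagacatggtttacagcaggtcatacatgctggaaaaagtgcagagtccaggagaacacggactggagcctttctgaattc
Nr5a2 later promoter, inside peak 7 (chr1:136953631-136953880, - strand): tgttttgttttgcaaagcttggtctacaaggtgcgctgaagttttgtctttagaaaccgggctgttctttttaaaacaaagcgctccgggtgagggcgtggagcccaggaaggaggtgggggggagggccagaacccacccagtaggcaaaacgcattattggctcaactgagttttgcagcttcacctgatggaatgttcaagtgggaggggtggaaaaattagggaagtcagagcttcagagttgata
Tfcp2l1 promoter, inside peak 1 (chr1:118627695-118627944, + strand): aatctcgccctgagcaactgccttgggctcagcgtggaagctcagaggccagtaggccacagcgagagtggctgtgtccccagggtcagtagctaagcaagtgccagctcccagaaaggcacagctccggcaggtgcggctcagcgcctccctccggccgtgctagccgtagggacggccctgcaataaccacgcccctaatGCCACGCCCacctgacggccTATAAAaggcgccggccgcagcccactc

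The windows of the genes differed in size and in where their peaks lay. Esrrb (ENSMUSG00000021255.17, chromosome 12, 86361117 to 86521628, plus strand) had 3 peaks within 1 kb of one of its TSSs, 24 further peaks in introns, 1 in the upstream flank and 1 in the downstream flank. Nr5a2 (ENSMUSG00000026398.14, chromosome 1, 136842571 to 136960448, minus strand) had 3 peaks at TSSs, 11 in introns and 5 upstream, and none downstream of the gene, where the window ends with the gene. Tfcp2l1 (ENSMUSG00000026380.10, chromosome 1, 118627945 to 118685168, plus strand) had 1 peak at its TSS and 5 in introns, and none in its upstream flank. No member outside the TSS class was centred in an exon of its gene. No member lay within 1 kb of a TSS of another gene. A Clasp1 transcript starts in the Tfcp2l1 window and had no peak at that start.

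**Figure D1:**
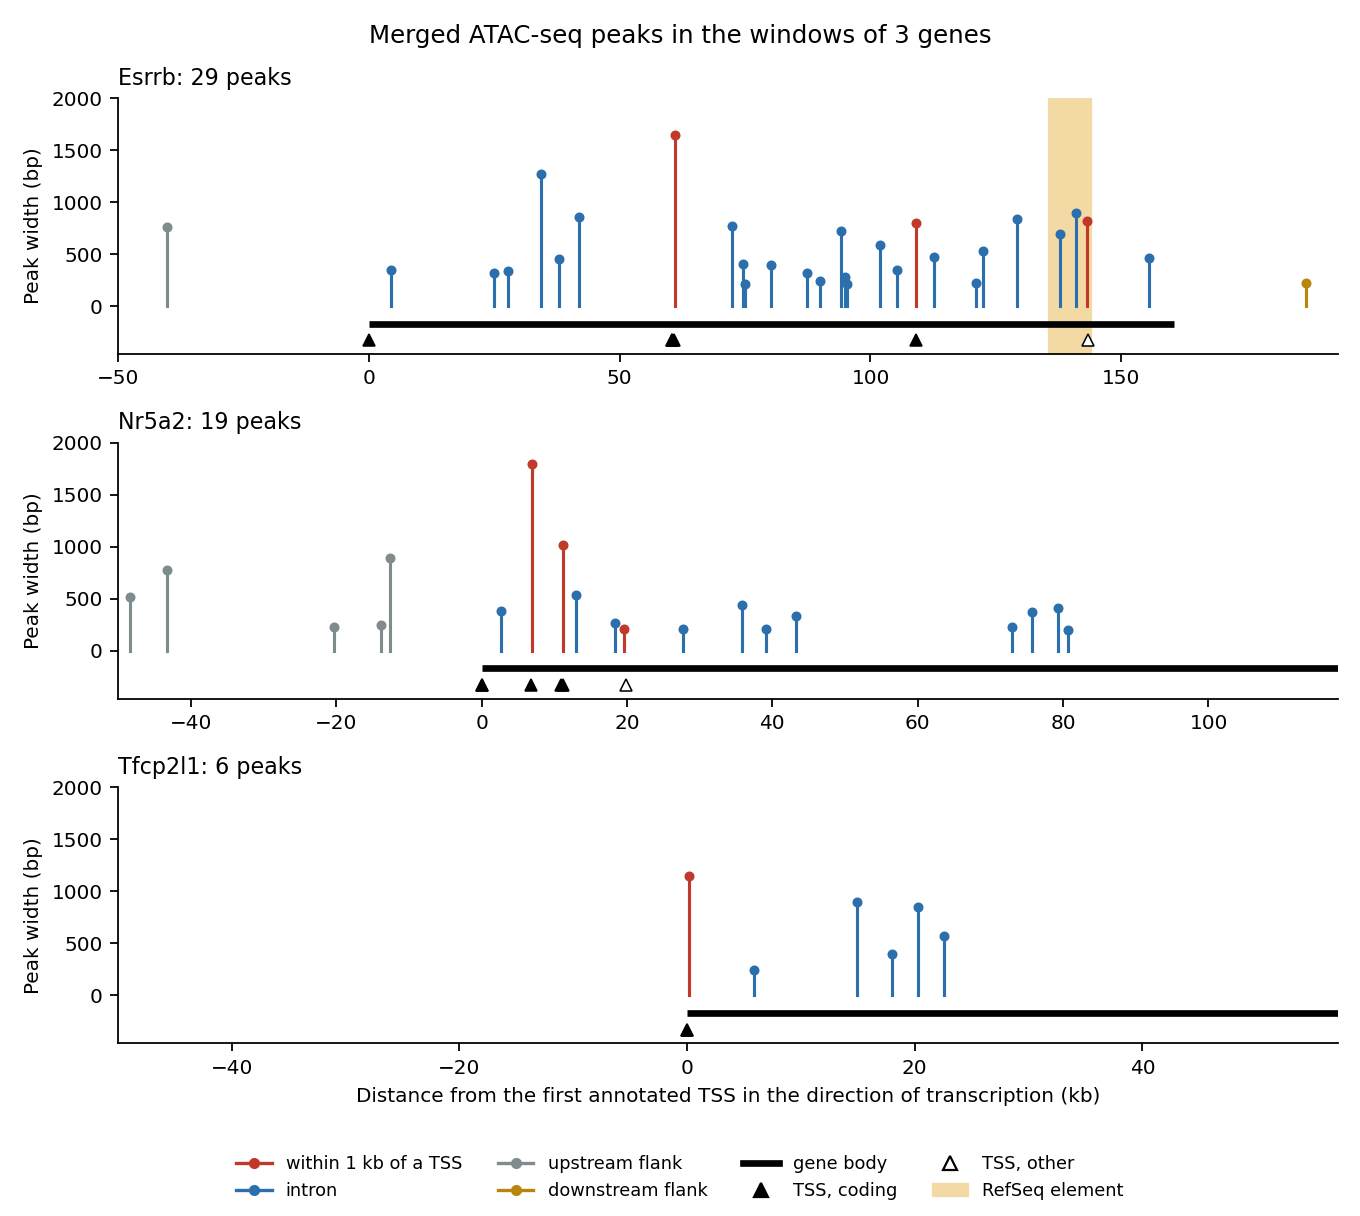
Each stem is a merged ATAC-seq peak, placed by its distance from the first annotated TSS of its gene (kb, in the direction of transcription) and as tall as the peak is wide (bp); stem colour gives the class, the black bar is the gene body, triangles are TSSs (filled for protein-coding transcripts) and the shaded span in the Esrrb map is the RefSeq enhancer cluster. The widest stems of Esrrb (1648 bp) and Nr5a2 (1800 bp) stand at TSSs inside the gene, no stem stands at the first TSS of either, and all 6 Tfcp2l1 stems lie in the first part of the gene.

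The first annotated TSS of Esrrb and of Nr5a2 lay outside every peak, while TSSs further inside each gene were covered. At Esrrb, the TSS of the longest transcript, Esrrb-204 (86361117), was 4324 bp from the edge of the nearest peak, which is peak 2 (86365441 to 86365788, 348 bp) in intron 1. The next TSSs downstream, of Esrrb-202 and Esrrb-203 (86421644) and of Esrrb-201 (86421883), both lay inside peak 8 (86421259 to 86422906). This was the widest Esrrb peak at 1648 bp, with a GC content of 60.6% and 110 CpG dinucleotides. It covered 325 bp of exon, all of it annotated as untranslated in at least 1 transcript.

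The last coding TSS of Esrrb, of Esrrb-206 (86470117), lay inside peak 20 (86469820 to 86470616, 797 bp, GC 57.7%, 42 CpG), which also covers exon 2 of Esrrb-204 whole. The innermost TSS, of the non-coding Esrrb-205 (86504409), lay inside peak 27 (86503854 to 86504674, 821 bp), which is less CpG-dense, with 10 CpG and a GC content of 52.5%. So 4 of the 5 Esrrb TSSs were inside a peak, and the exception was the first.

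At Nr5a2 the outermost TSSs, of Nr5a2-201 (136960448) and Nr5a2-203 (136960380), were 2448 and 2380 bp from the edge of the nearest peak, peak 6 (136957617 to 136958000) in intron 1. The TSS of Nr5a2-205 (136953630) lay inside peak 7 (136952614 to 136954413), the widest of all 54 members at 1800 bp, with a GC content of 49.6% and 59 CpG. The TSSs of Nr5a2-202 (136949562) and Nr5a2-206 (136949173) lay inside peak 8 (136948783 to 136949800, 1018 bp), with a GC content of 62.5% and also 59 CpG. These 2 peaks are of unlike width and hold the same number of CpG, so the narrower is the more CpG-dense (5.80 against 3.28 CpG per 100 bp). The TSS farthest inside the gene, of the retained-intron transcript Nr5a2-204 (136940583), was not inside a peak but 102 bp from the edge of peak 11.

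At Tfcp2l1 both TSSs (118627945 and 118627946) lay inside peak 1 (118627548 to 118628696), 1149 bp wide with a GC content of 59.1% and 60 CpG. Among all protein-coding genes with a coding TSS more than 2000 bp inside the first, 10.3% (680 of 6633) had the arrangement of Esrrb and Nr5a2, with no peak centred within 1 kb of the first coding TSS and one within 1 kb of a later coding TSS. Of the 2135 such genes with a peak at a later TSS, 31.9% lacked one at the first. The arrangement is thus shared with many genes and is not particular to this pair.

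The base composition of the printed promoters can be set beside their peaks. Over the 300 bases of the RefSeq promoter records, the first Esrrb promoter held 7 CpG at 60.0% GC and the later one, inside peak 8, also 7 CpG at 55.3% GC. The first Nr5a2 promoter held 2 CpG at 42.0% GC and the later one 7 CpG at 49.0% GC. The Tfcp2l1 promoter was the richest, with 21 CpG at 65.3% GC, and held a TATA box starting 28 bp before the TSS. Over 32851 RefSeq promoters, the median was 20 CpG in the 16521 that overlap a peak and 3 CpG in the 16330 that do not, and a TATA box was present in 4.03% and 12.7%. The later Esrrb and Nr5a2 promoters therefore lie below the median of promoters with a peak, and the CpG of peak 8 of Esrrb lie mostly outside its promoter record.

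Esrrb had more peaks in its window than most genes, Nr5a2 somewhat fewer than Esrrb, and Tfcp2l1 fewer than the median gene at the flank of 50 kb, though not at 20 kb. Over 21938 protein-coding genes the median number of peaks in such a window was 8.0. At least 29 peaks, the number of Esrrb, were found for 1.15% of the genes (253). At least 19, the number of Nr5a2, were found for 6.14% (1347), and at least 6, the number of Tfcp2l1, for 65.9% (14464). With a flank of 20 kb in place of 50 kb these shares were 0.88%, 3.49% and 33.1%, which puts Tfcp2l1 above the median gene, and with 100 kb they were 6.60%, 30.1% and 73.0%.

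Part of this order goes with the length of the windows, which were 243 kb for Esrrb, 168 kb for Nr5a2 and 107 kb for Tfcp2l1. Per 100 kb of window there were 11.9 peaks at Esrrb, 11.3 at Nr5a2 and 5.60 at Tfcp2l1, against a median of 6.43 over all genes, and 16.0%, 18.2% and 56.9% of genes reached these densities. Among the genes whose window length is within 10% of that of Esrrb (512 genes, median 12.0 peaks), 6.25% had at least as many peaks. The same shares were 11.9% for Nr5a2 (1248 genes, median 10.0 peaks) and 60.1% for Tfcp2l1 (15281 genes, median 7.0 peaks). Counted over the gene body alone, there were 16.8 peaks per 100 kb in Esrrb, 11.9 in Nr5a2 and 10.5 in Tfcp2l1, so Tfcp2l1 lay nearer to Nr5a2 than over the window and Esrrb lay farther from it.

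**Figure D2:**
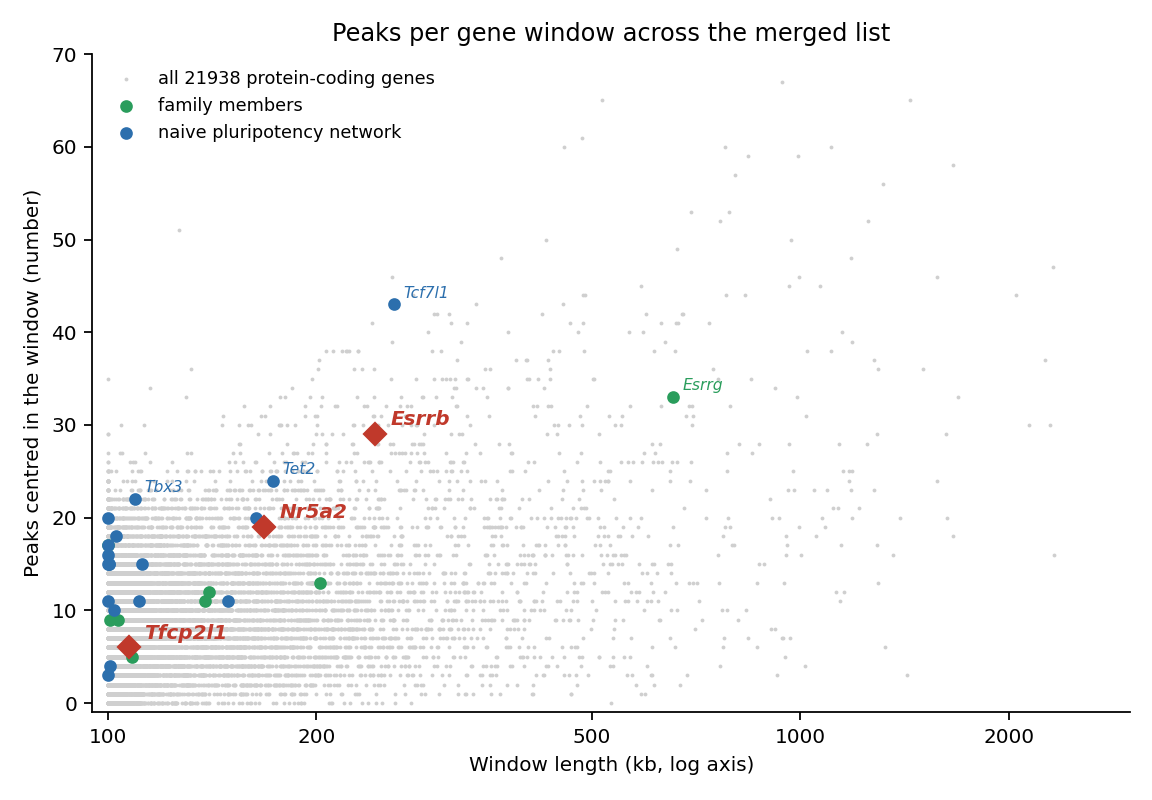
Each point is a protein-coding gene, with the length of its window (kb, log axis) against the number of peaks centred in it; diamonds are the 3 genes described, green points their family members, blue points the network list, and 12 genes lie beyond the axes. Esrrb stands at 29 peaks and Nr5a2 at 19, above the median of 8.0, and Tfcp2l1 at 6 stands below it at this flank of 50 kb, though not at 20 kb.

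Within each window the peaks were unevenly spread. In Esrrb, 18 of the 29 peaks (62.1%) lay in the 109 kb intron 1 of Esrrb-204, 3 in intron 2, 4 in intron 3 and 1 in intron 6. The longest stretch without a peak at Esrrb ran for 44.2 kb, from the only upstream flank peak (86320485 to 86321243) to peak 2, and so includes the first TSS. The next longest, 31.0 kb, ran from peak 28 past the end of the gene to the only downstream peak (86547836 to 86548054). Over all 29 Esrrb peaks, the median distance between neighbouring centres was 4.03 kb. Some neighbours nearly touched, with gaps of 0.01 kb between peaks 10 and 11, 0.34 kb between peaks 15 and 16 and 0.09 kb between peaks 16 and 17. The number of peaks is therefore not a number of separate elements.

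At Nr5a2 the peaks stood mostly in the part of the gene near its TSSs and upstream of it. Introns 1 to 5 of Nr5a2-201 held 5 peaks in all, the 49.6 kb intron 6 held 4, intron 7 held 2, and the 36.6 kb intron 8 held 2 at its upstream end. The last 37.2 kb of the gene, from peak 19 to its end, held none. The 5 upstream peaks lay from 12.6 to 48.4 kb before the first TSS and were 224 to 889 bp wide.

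At Tfcp2l1 all 5 intronic peaks were in intron 2 (19.9 kb), between 5.89 and 22.6 kb from the first TSS, and the 12 introns from intron 3 on held none. From peak 6, in intron 2, to the end of the gene, 34.4 kb held no peak. The 49.6 kb upstream of peak 1, a stretch that overlaps the end of Clasp1, held no peak either. Among the 15535 protein-coding genes with a peak at a TSS, 10.2% had no peak centred 1 to 50 kb upstream of the gene, as at Tfcp2l1.

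Most distal peaks of the 3 genes had near neighbours. Distal peaks are those more than 1 kb from any TSS, and a cluster is a run of at least 3 of them in which the gap from one to the next is below the stitching distance customary for super-enhancers (0.5 times 25 kb). Of the 47 distal members 43 lay in a cluster (91.5%), against 52.9% of the 89795 distal peaks of the whole list. The 43 come from only 3 loci (22 at Esrrb, 16 at Nr5a2 and 5 at Tfcp2l1), and neighbours share a cluster, so they are not separate observations. This share was taken at this gap limit only. Esrrb had 2 clusters. The larger ran over 69.4 kb (chromosome 12, 86433151 to 86502554) with 17 peaks, a number reached by 0.76% of the 10002 clusters of the list, and the smaller had 5 peaks over 17.5 kb (86385942 to 86403423), which 36.0% of clusters reached. At a gap limit of 5 kb the larger came apart, and the largest Esrrb cluster then had 5 peaks, which 11.5% of clusters reached, and at 25 kb it had 18 peaks, which 5.32% reached. Nr5a2 had 4 clusters of 3 to 7 peaks, of which the farthest upstream includes a peak centred beyond the window, and 15.7% of clusters were at least as large as its largest. At a gap limit of 5 kb its largest cluster had 4 peaks, which 32.1% of clusters reached, and at 25 kb it had 13, which 10.8% reached. Tfcp2l1 had 1 cluster, its 5 intronic peaks, a size that 36.0% of clusters reached. Its cluster had 4 peaks at 5 kb (32.1%) and 5 at 25 kb (52.0%).

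The RefSeq annotation places an element of 8.22 kb at the end of the larger Esrrb cluster (chromosome 12, 86496798 to 86505014), named there as an Esrrb enhancer cluster tested by CRISPR interference. It overlapped 3 of the 29 Esrrb peaks, peaks 25, 26 and 27, which together covered 29.3% of it. Peak 25 (86498578 to 86499266) was 689 bp wide, peak 26 (86501655 to 86502554) 900 bp and peak 27, which also holds the TSS of Esrrb-205, 821 bp. Peaks 26 and 27 held 3 of the 5 ESRRB matches found at Esrrb, all printed above. Among the functional elements of the RefSeq annotation, which are kept apart from the promoter records printed above, no other one listed as an enhancer, promoter, silencer, locus control region or transcriptional cis-regulatory region lay at Esrrb, and none lay in the windows of Nr5a2 or Tfcp2l1. Of 1315 such elements in the annotation of the mouse genome, 41.8% overlapped a peak of the list.

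The widths of the members spanned the usual range of the list. Distal members had a median width of 402 bp (201 to 1270 bp), against 380 bp for the distal peaks of the whole list, and 26 of the 47 were wider than that median. The widest distal member was Esrrb peak 5 (86394869 to 86396138, 1270 bp) in intron 1, and 2.62% of the distal peaks of the list were at least as wide. The narrowest Esrrb peaks were peak 11 (86435934 to 86436147) and peak 17 (86456267 to 86456480), both 214 bp. The narrowest Nr5a2 peak was peak 19 (136879721 to 136879921, 201 bp) and the narrowest Tfcp2l1 peak was peak 2 (118633709 to 118633952, 244 bp).

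The median width was 465 bp at Esrrb, 369 bp at Nr5a2 and 711 bp at Tfcp2l1. The median GC content was 53.1% at Esrrb (43.2 to 60.6%), 48.2% at Nr5a2 (31.6 to 62.5%) and 51.1% at Tfcp2l1 (48.1 to 59.1%). The median share of bases masked as repeats was 10.5% at Esrrb, 18.5% at Nr5a2 and 10.2% at Tfcp2l1, and 11.1% over the list. The peak with the largest repeat share was Nr5a2 peak 13 at 59.2%.

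Patterns of the factors encoded by these genes were found at Esrrb and Tfcp2l1 and not at Nr5a2. The ESRRB pattern was in 4 of the 29 Esrrb peaks and in none of the other 25 members, and 2.91% of the peaks of the whole list hold it. At the share of list peaks of the same class (within 1 kb of a TSS or not) and similar width, the 29 Esrrb peaks would hold it in 0.95 peaks and the 54 members in 1.63. The NR5A2 pattern was in 1 member, Esrrb peak 2, with 2.18% over the list. At the share for class and width, 1.16 members would hold it, and 0.35 of the Nr5a2 peaks.

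Esrrb peak 2, the peak nearest to the first TSS, held ESRRB (86365590 to 86365598, plus strand), NR5A2 (86365631 to 86365639, minus strand) and TFCP2L1 (86365490 to 86365503, minus strand). The ESRRB match lay 20 bp and the NR5A2 match 21 bp from the peak centre, on opposite sides. Both patterns together were in 0.145% of all peaks (165), a combination looked up after it had been seen. Peak 3 (86385942 to 86386261, 320 bp) held ESRRB 14 bp from its centre.

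Peak 26 held ESRRB at 2 positions, 41 and 383 bp from its centre, and 0.111% of all peaks (126) hold it at 2 or more. Peak 27 held ESRRB 259 bp from its centre and TFCP2L1 291 bp from it.

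The TFCP2L1 pattern was in 8 members, 5 of Esrrb and 3 of the 6 of Tfcp2l1, and in 14.3% of the list. At the share for class and width, 3.81 peaks would hold it at Esrrb, 2.23 at Nr5a2 and 0.97 at Tfcp2l1, so the 8 found compare with 7.01. Besides peaks 2 and 27, the Esrrb peaks were peak 5, with the match 7 bp from its centre, peak 9 (86433151 to 86433920) and the downstream peak 29, with the match 18 bp from its centre. At its own gene the pattern was in the TSS peak, 227 bp from its centre, in intronic peak 5 (118647796 to 118648650) at 2 positions, 70 and 148 bp from its centre, and in intronic peak 6 (118650220 to 118650786), 245 bp from its centre. At least 2 matches were held by 3.10% of the list.

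The OCT4::SOX2 composite was in 1 member, Nr5a2 peak 11 (136940685 to 136940897, 213 bp), with 0.731% over the list and 0.39 peaks at the share for class and width. The match (136940772 to 136940786, plus strand) lay 12 bp from the peak centre and departed from the pattern by a single change, A12T, counted from the first base of the SOX element. The peak lies whole in the coding sequence of exon 6 of Nr5a2-201, so the match is also coding sequence. Peaks with every base in coding sequence made up 0.702% of the list (799), and 3 of the 831 peaks with the composite were among them. The same peak held a SOX match on the other strand (136940796 to 136940803).

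The SOX pattern (CCATTGTC, CCATTGTT, CCTTTGTC or CCTTTGTT) was in 7 members, 1 of Esrrb, 3 of Nr5a2 and 3 of Tfcp2l1, and in 13.0% of the list, which for class and width gives 6.99. At Tfcp2l1 these were the neighbouring peaks 3, 4 and 5 of intron 2. The octamer alone (ATTTGCAT) was in no member, with 3.07% over the list and 1.65 peaks at the share for class and width. It is the reverse complement of the octamer of the composite, so a composite match with an exact octamer would have been found by both.

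Of the other factors searched, STAT3, the effector of LIF, had its pattern in 1 member, Esrrb peak 22 (86482071 to 86482292, 222 bp), and in 2.31% of the list. KLF (GGGCGTGGC, GGGCGGGGC, GGGTGTGGC or GGGTGGGGC), the site of the KLF2, KLF4 and KLF5 factors, was in 6 members, 5 of Esrrb and the TSS peak of Tfcp2l1, and in 13.8% of the list. At the share for class and width, 6.65 members would hold it. That Tfcp2l1 peak held it at 3 positions, 1 of them in the printed promoter, and 1.37% of the list hold it at 3 or more. This share is over all peaks, and KLF was in 32.0% of list peaks within 1 kb of a TSS against 8.9% of distal ones. TCF7L1 (CTTTGAT), the site of the TCF and LEF factors, was in 3 members, 1 of each gene, and in 8.61% of the list. CTCF, the insulator protein, had its pattern in 5 members, all of Esrrb, and in 16.6% of the list. At the share for class and width, 9.30 members would hold it, and 5.29 of the Esrrb peaks, near the 5 found there.

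**Figure D3:**
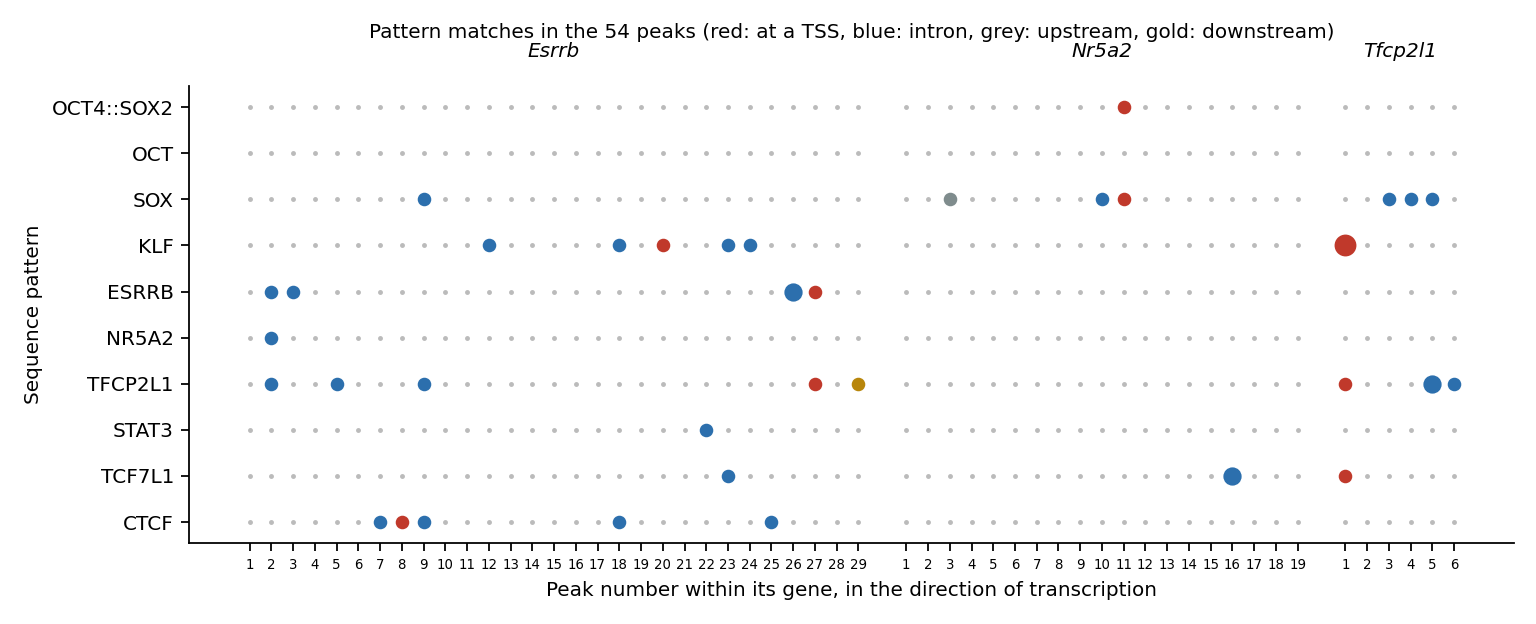
Columns are the 54 peaks by gene and number in the direction of transcription, rows are the 10 sequence patterns, and a large dot marks a peak with at least 1 match, larger with more matches and coloured by class (red at a TSS, blue intron, grey upstream, gold downstream). ESRRB dots stand only in 4 Esrrb columns, 4 of the 19 Nr5a2 columns have any dot, and 5 of the 6 Tfcp2l1 columns do.

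Counted over all 10 patterns, 16 of 29 Esrrb peaks, 4 of 19 Nr5a2 peaks and 5 of 6 Tfcp2l1 peaks held at least 1, against 52.5% of the list. Nr5a2 peaks also had the lowest median width and the lowest median GC content of the 3 genes, and the part of width and composition in its low count was not tested. A match is a description of the letters and not evidence that a factor was bound.

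Genes related by family or by network had windows of many kinds. All 8 family members (Esrra, Esrrg, Nr5a1, Tfcp2, Ubp1, Grhl1, Grhl2 and Grhl3) had a peak at a TSS, with a median of 11.5 peaks per window (5 to 33) against 8.0 over all genes, and 8.27 per 100 kb against 6.43. Esrrg, the paralogue with the longest gene of the list, had 33 peaks over a 656 kb window, more than Esrrb in number and fewer per length (5.03 per 100 kb). Nr5a1, the paralogue of Nr5a2 known from the adrenal and gonad, had 9 peaks. Tfcp2, a close relative of Tfcp2l1, had 12, and Grhl3, a grainyhead factor of the epidermis, had 17.

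In the naive pluripotency network list 17 of 18 genes had a peak at a TSS, with Dppa3 the exception, and 70.8% of all protein-coding genes have one. Pou5f1, Sox2 and Nanog, which define ES cells, were among the 17. The median was 15.0 peaks per window (3 to 43) and 14.4 per 100 kb. Only Tcf7l1, the repressor of Esrrb, had at least as many peaks as Esrrb, with 43 over 259 kb. At least as many as Nr5a2 were found at 5 of the 18: Tcf7l1, Tet2 (24), Tbx3 (22), Prdm14 (20) and Lifr (20). Fewer than the 6 of Tfcp2l1 were found at 2, Klf4 (4) and Nr0b1 (3). Per 100 kb Esrrb and Nr5a2 lay below the median of this list, whose genes are mostly short.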

How the data were processed

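Per the study's methods and the submitters' processing notes, the authors aligned ATAC-seq reads to GRCm38 with STAR 2.6.1c, removed duplicates with Picard, called peaks with MACS2 2.1.1.20160309 and merged the peaks of all dox-treated OCT4-AID experiments with BEDTools. Whether peaks were called per library or on pooled libraries is not given in the sources used here. The deposited list has a chromosome, a start and an end per peak (152 to 38206 bp wide) and no other value, so no test between samples was made. The methods describe removal of peaks over 5 kb, yet 11 of the 113737 listed are wider, none of them at these genes.

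Peaks were matched to GENCODE M21 genes and to the RefSeq GRCm38.p6 genome, annotation and promoter table, in Python 3.11.15 with numpy 2.4.6 and numba 0.67.0, and plotted with matplotlib 3.10.9. Patterns were searched on both strands, without mismatch except up to 2 for OCT4::SOX2 and up to 1 for CTCF. The search found all 2000 patterns planted in simulated sequence. The share for class and width was taken from list peaks of the same class and width decile. Genes, lists and patterns were chosen with earlier results of these data known. Shares of list peaks with combined or repeated matches, or wholly in coding sequence, were looked up after the matches had been seen. Single peaks are described where they lie at a TSS, are the widest or narrowest of a gene, or hold an OCT4::SOX2, ESRRB, NR5A2, TFCP2L1 or STAT3 match, and a few others (those next to an uncovered TSS, in a flank, beside a long stretch without peaks, in the RefSeq element, or with the largest repeat share) were chosen after their values were seen. Named genes are the 3 members and both lists of related genes, and Clasp1, which overlaps the Tfcp2l1 window, was named after its position was seen. Other flanks, TSS distances, gap limits, width limits, overlap rules, mismatch limits and a central 300 bp were tried as alternatives.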

Additional observations from a re-analysis of the deposited data

How the results depend on the processing

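Of 63 alternatives to 23 values, 37 stayed within the limits set (1.5 times for a count, the 95% binomial interval for a share of genes). The number of peaks per gene did so for all 3 genes under every flank, overlap, width and TSS rule tried. Counting TSS peaks within 2500 bp gave 5 at Nr5a2, and a gap limit of 25 kb joined its clusters into 2. The share of genes with at least as many peaks moved under each alternative. For Esrrb it was 1.56% among genes with a peak at a TSS, 0.88% with a flank of 20 kb, 6.60% with 100 kb and 16.0% per kb of window. For Nr5a2 these were 8.25%, 3.49%, 30.1% and 18.2%, and for Tfcp2l1 80.2%, 33.1%, 73.0% and 56.9%, of which the value at 20 kb puts Tfcp2l1 above the median gene. Allowing 1 more mismatch gave 2 of the 54 members with OCT4::SOX2 (3.70%, against 5.83% of all peaks at the same limit), 13 with OCT (24.1%, 33.9%), 41 with SOX (75.9%, 78.5%), 28 with KLF (51.9%, 50.2%), 20 with ESRRB (37.0%, 21.0%), 11 with NR5A2 (20.4%, 22.4%), 38 with TFCP2L1 (70.4%, 67.1%) and 23 with STAT3 (42.6%, 30.3%). CTCF without mismatch was in 1 (1.85%, 4.19%). In the central 300 bp, SOX and TFCP2L1 were each in 4 members and CTCF in 3, and the shares over all peaks fell too, to 7.45%, 7.25% and 11.1%. No paired analysis was possible because the list holds no value per sample. Depth, and with it the weakest region that could be called, is unknown.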

Other observations

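Peaks centred between 50 and 100 kb from the TSSs, outside the windows, were counted for the 3 genes only, without a comparison to other genes. There was 1 such peak downstream of Esrrb, 1 upstream of Nr5a2, and 3 at Tfcp2l1, of which 1 was upstream and 2 were downstream. None of the 5 lay within 1 kb of a TSS or held an OCT4::SOX2 or ESRRB match, and the one at Nr5a2 held a TFCP2L1 match. That peak overlaps the edge of the Nr5a2 window, and counting any overlap gave 20 peaks in place of 19. The 19 peaks centred in the window hold no TFCP2L1 match.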
